A study of Danio rerio with 6 samples.

Results

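The genes described here are the members of 5 immune and ubiquitin-ligase gene families in single zebrafish (Danio rerio) embryos: the numbered trim genes, the fish-specific finTRIM genes (ftr), the major histocompatibility genes of class I (mhc1) and class II (mhc2), and the nlrc genes. Members were chosen by symbol, with at least 10 counts summed over the 6 libraries. They numbered 128 of the 32057 genes in the count table, out of 175 entries with such a symbol. No entry had a gimap symbol, so that family is not described. The 128 members were 51 ftr, 8 mhc1, 2 mhc2 and 8 nlrc genes, 21 numbered copies of trim35, 5 trim genes with numbers from 101 to 110, and 33 other trim genes, called conserved trim genes below because they carry the names used across vertebrates. The first 5 of these groups, 90 genes, are called multi-copy.

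Each library was made from 1 whole embryo with 10 somites, the segments that give rise to trunk muscle. The labels give 3 embryos as Pea3 triple mutants (genotype 3etv) and 3 as wild type (WT). Pea3 proteins are transcription factors of the ETS class that act in fibroblast growth factor signalling. The labels give no mutant allele, strain, clutch or parent, so genotype, genetic background and clutch cannot be told apart in any comparison below.

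TRIM proteins are mostly RING-finger ubiquitin ligases, and several are effectors or regulators of antiviral defence. The finTRIM branch expanded in fish, often as tandem copies. Class I and class II histocompatibility molecules present peptides to T cells, and nlrc genes encode cytosolic receptors with a nucleotide-binding domain, many of them followed by leucine-rich repeats. In zebrafish the gene content of the histocompatibility regions is known to differ between haplotypes, and NLR genes form a large family. Many conserved trim genes instead have roles outside immunity, for example in stem cells, muscle and neurons.

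Gene counts totalled between 18484238 and 21865288 in the 3etv libraries and between 22446699 and 28841169 in the WT libraries. In the targeted family, etv5a and etv5b were lower in each 3etv embryo than in any WT embryo (log2 fold changes -1.52 and -1.69), as was etv1 (-1.33). The gene etv4 was also lower in each 3etv embryo than in any WT embryo, but did not pass (-0.52, edgeR adjusted p 0.057). All 8 marker genes of the whole embryo at this stage, among them tbxta, pax2a, egr2b and krt4, were above the low-count filter. In the fit below, 6 of the 8 differed, against 31.3% of all tested genes. Higher in 3etv was tbxta, and 5 were lower (egr2b, gata1a, myod1, sox2 and krt4). Markers of blood cells ranged from no counts to clear expression. The macrophage gene mpeg1.1 had no count in any library, and of 5 neutrophil entries, 4 had 3 counts or fewer in each embryo. The other, an mmp13a entry, had 6, 7 and 4 counts in 3etv and 5, 3 and 9 counts in WT. Of the 9 macrophage and myeloid markers, 4 never exceeded 3 counts, and 1 of the 7 lymphocyte markers never did. Summed over the myeloid list, levels lay between 67.4 and 71.7 CPM, counts scaled to library size, in 3etv and between 31.1 and 37.3 CPM in WT. That sum consisted mostly of lcp1, at 60.1 CPM in 3etv and 24.3 CPM in WT, and of spi1b, at 8.46 CPM in 3etv and 8.87 CPM in WT. Summed lymphocyte markers lay between 2.78 and 3.26 CPM in 3etv and between 3.63 and 4.01 CPM in WT. That gap rested on rag1, at 1.25 CPM in 3etv and 2.20 CPM in WT, and without it the sums overlapped. The other tested lymphocyte markers, rag2 and ikzf1, were not called (log2 fold changes 0.18 and -0.01). The part of these cells in the results below was not tested.

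The members were compared between genotypes in a fit of the whole table. After a filter on low counts, 83 of the 128 members were tested, among 18533 genes. Of the tested members, 33 passed at an adjusted p under 0.05, 15 higher and 18 lower in 3etv. Over all tested genes the share that passed was 31.3%, with 15.9% higher and 15.4% lower, against 39.8% of the tested members. The multi-copy members passed in 23 of 51 cases (45.1%), 12 higher and 11 lower. By family, 7 of 8 nlrc, 12 of 26 ftr, 1 of 6 mhc1, 1 of 1 mhc2 and 2 of 10 trim35 copies passed. The shares of mhc1 (16.7%) and of the trim35 copies (20%) were below that of all tested genes. The conserved trim genes passed in 9 of 29 cases (31.0%), 3 higher and 6 lower, close to the share of all tested genes. A member that is high in only 1 genotype can pass the filter through that genotype alone, so these shares describe the members that were tested and not the families.

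**Figure D1:**
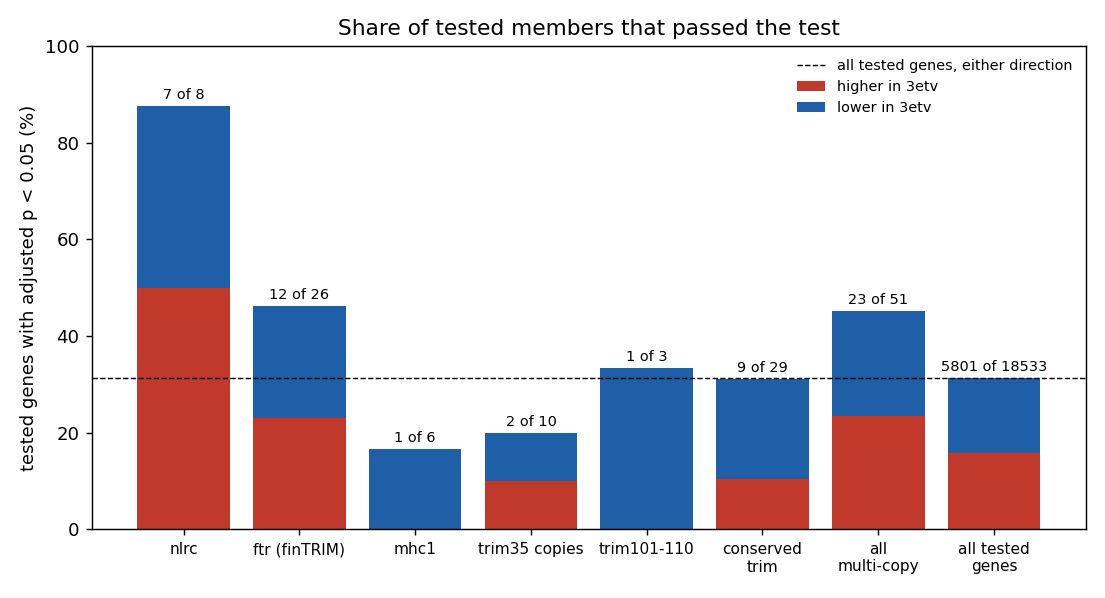
Share of tested genes (vertical axis, percent) with an edgeR adjusted p under 0.05, for each family with more than 1 tested member, for all multi-copy members and for all tested genes. Red parts are genes higher in 3etv and blue parts genes lower in 3etv, and the dashed line marks the 31.3% of all tested genes. The nlrc genes stand highest, with 7 of 8, and the conserved trim genes, with 9 of 29, lie at the line.

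A log2 fold change of at least 1 with an adjusted p under 0.05 was found for 16 of the 51 tested multi-copy members, 9 higher and 7 lower, and for 6 of 29 conserved trim genes, where 10.2% of all tested genes had one. The median absolute log2 fold change was 0.47 in multi-copy members, 0.22 in conserved trim genes and 0.25 in all tested genes. Multi-copy genes were mostly low, with 33 of 51 in the lowest tercile of tested genes by mean CPM. In that tercile the medians were 0.88 for multi-copy members, 1.48 for 7 conserved trim genes and 0.52 for all tested genes. A called change of at least 1 on the log2 scale was found there in 14 of 33 multi-copy members, in 5 of 7 conserved trim genes and in 22.5% of all tested genes. In the middle tercile they were 0.37 for 14 multi-copy members, 0.24 for 15 conserved trim genes and 0.25 for all tested genes.

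Summed levels overlapped between the genotypes in some families and not in others. The 90 multi-copy members summed to 351.3, 349.0 and 377.7 CPM in the 3etv embryos and to 336.4, 334.6 and 358.0 CPM in the WT embryos, which overlapped. The ftr genes alone summed to 173.5, 178.1 and 164.7 CPM in 3etv and to 165.6, 165.9 and 172.5 CPM in WT. The summed nlrc genes were lower in 3etv, at 41.9, 46.9 and 46.3 CPM, than in WT, at 51.3, 50.2 and 56.8 CPM. The largest difference was in 1 nlrc8 entry (ENSDARG00000092025), at 0.267, 0.368 and 0 CPM in 3etv and 9.13, 5.71 and 6.54 CPM in WT. Without it the nlrc sums overlapped, as they did when nlrc6 was left out instead. Of the 7 nlrc genes that passed, 4 were higher in 3etv. The mhc2 genes, of which mhc2b held nearly all counts in 3etv, summed to 21.6, 6.48 and 52.4 CPM in 3etv and to 1.92, 0.889 and 1.36 CPM in WT. The sum of each trim group was lower in every 3etv embryo than in any WT embryo. The conserved trim genes summed to 793.8, 792.2 and 823.8 CPM in 3etv and to 865.1, 829.9 and 842.1 CPM in WT. The 21 numbered copies summed to 84.0, 85.2 and 82.6 CPM in 3etv and to 88.2, 86.5 and 94.9 CPM in WT. The 5 remaining trim genes summed to 20.4, 18.5 and 19.4 CPM in 3etv and to 21.6, 21.7 and 20.7 CPM in WT. Each of these gaps was lost when a single gene was left out. Without trim71 the sums of the conserved trim genes overlapped, and so they did when trim33 was left out instead. The sums of the 5 remaining genes overlapped without trim109. Without trim35-7 (ENSDARG00000104825) the numbered copies summed higher in every 3etv embryo than in any WT embryo. The mhc1 sums overlapped. Between 117 and 121 of the 128 members had at least 1 count in each embryo.

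**Figure D2:**
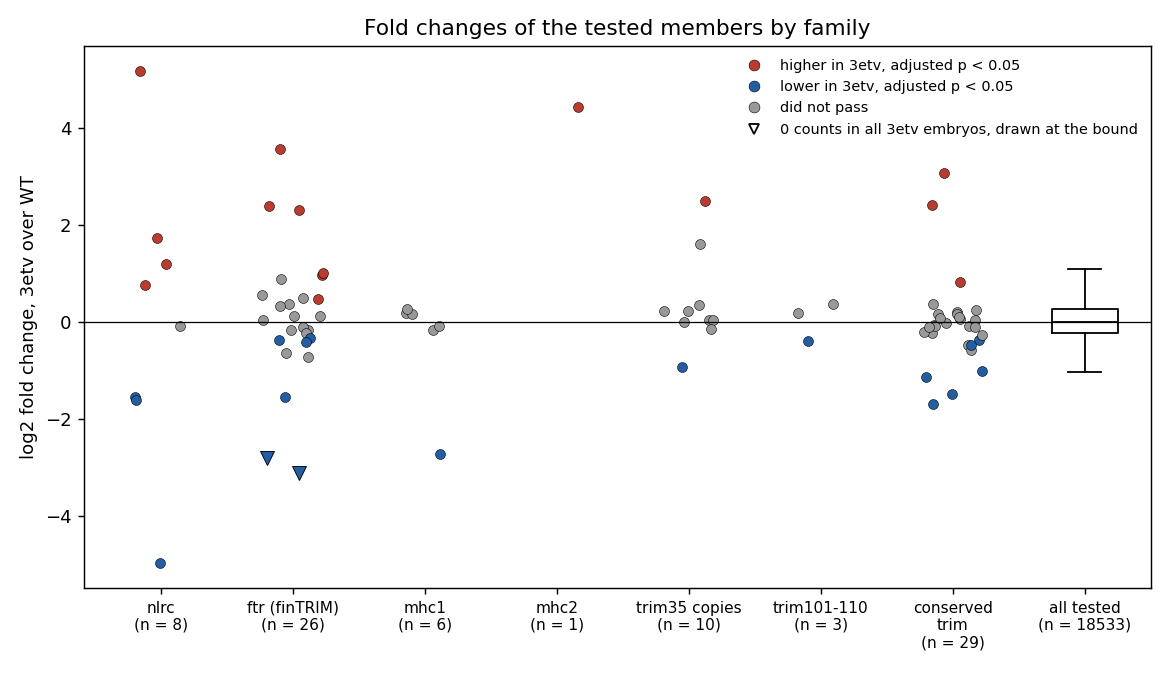
Log2 fold change (vertical axis, 3etv over WT) of each tested member by family, with the number tested, beside a box of all 18533 tested genes (quartiles, median, whiskers at percentiles 5 and 95). Red points passed the test as higher in 3etv, blue points as lower, and grey points did not pass. Triangles are the 2 ftr genes without counts in any 3etv embryo, drawn at the smallest fold that the floor of 3 counts allows. The nlrc points spread from -4.97 to 5.17, while most conserved trim points lie near 0. The families differ in level: 6 of 8 nlrc genes and 7 of 29 conserved trim genes are in the lowest tercile of mean CPM.

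The nlrc genes differed between the genotypes in nearly every case. All 8 were tested and 7 passed, 4 higher and 3 lower in 3etv, and in each of the 7 the 3 embryos of one genotype lay apart from the 3 of the other. Over all tested genes, the embryos did not overlap for 45.1%. The exception was nlrc3l1 (ENSDARG00000086553), the nlrc gene with the highest CPM, at 27.0, 27.1 and 31.6 CPM in 3etv and 27.6, 28.5 and 34.2 CPM in WT (log2 fold change -0.08, SE 0.10, edgeR adjusted p 0.61). Of the 8 nlrc genes, 6 were in the lowest tercile of mean CPM. In that tercile 5 of 7 conserved trim genes passed, and 29.4% of all tested genes.

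Of 2 entries with the symbol nlrc8, one fell and the other rose. The entry ENSDARG00000092025, which the current gene name table lists under the clone name si:dkey-121n8.8, had 0.267, 0.368 and 0 CPM in the 3etv embryos, against 9.13, 5.71 and 6.54 CPM in the WT embryos. These CPM correspond to 5, 8 and 0 counts in 3etv and 205, 167 and 164 counts in WT. It was nearly silent in each mutant and present in each wild-type embryo, and the log2 fold change was -4.97, with an SE of 0.42 and an edgeR adjusted p of 8.88e-06. Without 3etv embryo 2, which held the most mutant counts, the log2 fold change was -5.65. The second entry, ENSDARG00000076819, had 1.39, 2.85 and 2.26 CPM in 3etv and 0.624, 0.513 and 0.837 CPM in WT. Its groups lay apart in the opposite direction (log2 fold change 1.73, SE 0.34, edgeR adjusted p 0.0017). Summed over both entries, levels under the nlrc8 symbol were lower in 3etv, at 2.38 ± 0.79 CPM against 7.78 ± 1.80 CPM in WT (SD, n = 3 each). Most of the WT sum came from ENSDARG00000092025, whose place under that symbol is uncertain given its clone name.

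The gene nlrc9 (ENSDARG00000078101) showed the reverse of the first nlrc8 entry. It had 21, 30 and 16 counts in the 3etv embryos and 0, 0 and 2 counts in the WT embryos. Pooled over embryos and scaled to depth, this was a ratio of 43.9, with a 95% exact binomial interval from 11.7 to 370.0 that covers counting error only (edgeR adjusted p 9.56e-05). Both WT counts came from WT embryo 3, and without that embryo no WT count was left. Without WT embryo 2 the fitted log2 fold change was 4.57, against 5.17 with all embryos.

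A pair of further nlrc genes were lower in 3etv. The gene nlrc6 (ENSDARG00000091320) had 1.44, 2.89 and 1.27 CPM in 3etv, all below the 4.99, 6.90 and 5.46 CPM in WT (log2 fold change -1.61, SE 0.27, edgeR adjusted p 7.80e-04). The gene nlrc3 (ENSDARG00000103146), whose mammalian counterpart dampens innate signalling, had 0.535, 1.65 and 1.55 CPM in 3etv and 3.34, 4.17 and 3.51 CPM in WT (log2 fold change -1.55, SE 0.30, edgeR adjusted p 0.0020). In both genes the mutant embryos also differed among themselves by more than the wild types did relative to their mean.

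The other 2 nlrc genes that passed were higher. The gene nlrc5 (ENSDARG00000024631), which in mammals switches on class I histocompatibility genes, had 2.35, 3.17 and 2.37 CPM in 3etv and 1.34, 1.13 and 0.997 CPM in WT (log2 fold change 1.20, SE 0.25, edgeR adjusted p 0.0027). The gene nlrc3l (ENSDARG00000099936) had 7.81, 7.44 and 6.35 CPM in 3etv and 4.28, 3.25 and 5.22 CPM in WT (log2 fold change 0.77, SE 0.18, edgeR adjusted p 0.0059).

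**Figure D3:**
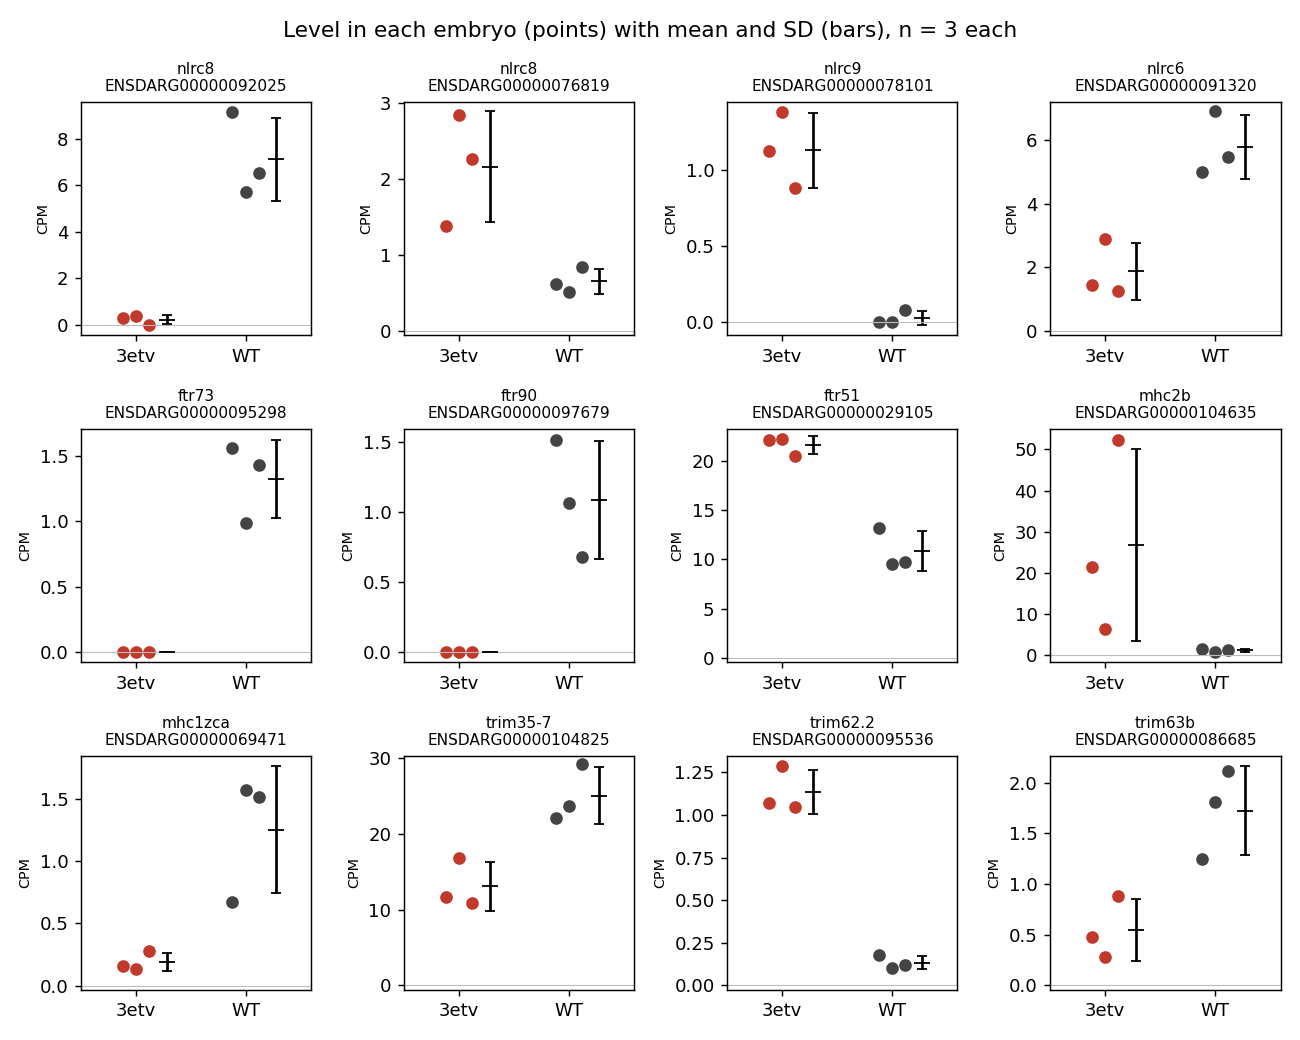
Level of 12 members in each embryo (CPM, vertical axes that include 0 and differ between panels), with the 3 3etv embryos in red left of the 3 WT embryos in grey. Bars give the mean and SD of each group. In each panel the groups do not overlap. ftr73 and the ftr90 entry are at 0 in the 3etv embryos, while mhc2b spans 6.48 to 52.4 CPM among them.

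Among the finTRIM genes, 26 of 51 were tested and 12 passed, 6 higher and 6 lower in 3etv. Over all tested genes 31.3% passed. Of the 26, 17 were in the lowest tercile of mean CPM, where 29.4% of all tested genes passed. Of the 12 that passed, 2 had no count in any 3etv embryo. The gene ftr73 (ENSDARG00000095298) had 0 counts in each 3etv embryo and 35, 29 and 36 counts in the WT embryos. With a floor of 3 counts per library, its level in 3etv was at least 8.59-fold lower, at an edgeR adjusted p of 5.67e-05. An entry with the symbol ftr90 (ENSDARG00000097679), listed as ftr88 in the current gene name table, had 0 counts in each 3etv embryo and 34, 31 and 17 counts in WT. Its level in 3etv was at least 7.01-fold lower, at an edgeR adjusted p of 1.94e-04. A second ftr90 entry (ENSDARG00000097373) had 0.160, 0.230 and 0.221 CPM in 3etv and 0.624, 0.683 and 0.518 CPM in WT, so that it was also lower (log2 fold change -1.55, SE 0.45, edgeR adjusted p 0.018). That call was lost with DESeq2 (adjusted p 0.086) and without 3etv embryo 1, 3etv embryo 2 or WT embryo 2 (adjusted p 0.064, 0.051 and 0.069).

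Genes were called all-or-none where no library of 1 genotype exceeded 3 counts and no library of the other fell below 30. No member was, against 0.221% of tested genes. With 10 counts in place of 30, 4 of the 83 tested members were: ftr73 and the ftr90 entry, lower in 3etv, and nlrc9 and ftr38, higher in 3etv. Of all tested genes, 0.712% met that rule. All 4 members were in the lowest tercile of mean CPM, for which that share was not computed. The gene ftr38 (ENSDARG00000095678) had 10 counts in each 3etv embryo and 0, 3 and 0 counts in the WT embryos. The ratio was 13.1, with a 95% exact binomial interval from 4.08 to 67.1 (edgeR adjusted p 0.0031). Its 3 WT counts all came from WT embryo 2. With the minimum of 30, ftr73 was all-or-none without WT embryo 2 and the ftr90 entry without WT embryo 3.

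The finTRIM genes that rose with the lowest adjusted p were ftr51, ftr23 and ftr16. The gene ftr51 (ENSDARG00000029105) had 22.1, 22.2 and 20.5 CPM in 3etv and 13.1, 9.57 and 9.77 CPM in WT (log2 fold change 1.0, SE 0.12, edgeR adjusted p 5.54e-05). The mutant embryos were tightly grouped at about the same level, well above the wild types. The gene ftr23 (ENSDARG00000067985) had 4.12, 5.70 and 4.47 CPM in 3etv and 2.32, 2.77 and 2.19 CPM in WT (log2 fold change 0.97, SE 0.20, edgeR adjusted p 0.0023). The gene ftr16 (ENSDARG00000032043) had 18, 26 and 11 counts in 3etv and 7, 5 and 2 counts in WT (log2 fold change 2.31, SE 0.49, edgeR adjusted p 0.0031).

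A further 2 finTRIM entries were called higher with less support. The entry named ftr05 (ENSDARG00000078065), listed as ftr96 in the current gene name table, had 12, 14 and 11 counts in 3etv and 0, 2 and 7 in WT (log2 fold change 2.38, edgeR adjusted p 0.013). Without WT embryo 2 it did not pass (adjusted p 0.059), and without WT embryo 3 the log2 fold change was 3.85. The gene ftr67 (ENSDARG00000098820) had 7.97, 10.0 and 10.3 CPM in 3etv and 5.93, 5.84 and 8.65 CPM in WT, so the groups overlapped (log2 fold change 0.47, edgeR adjusted p 0.049). That call was lost with RLE scaling (adjusted p 0.051), with DESeq2 (adjusted p 0.052), when the filter was a mean count of 50 (adjusted p 0.057), in libraries thinned to equal depth (adjusted p 0.053) and without 3etv embryo 2 or 3 or WT embryo 1 or 2 (adjusted p from 0.12 to 0.18).

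Other finTRIM genes with high CPM differed by less than ftr51. The gene ftr86 (ENSDARG00000076839) had 13.3, 12.9 and 13.9 CPM in 3etv and 18.4, 18.3 and 16.4 CPM in WT (log2 fold change -0.41, SE 0.10, edgeR adjusted p 0.0062). The gene ftr82 (ENSDARG00000055647) had 25.1, 27.3 and 22.3 CPM in 3etv and 29.6, 30.6 and 33.9 CPM in WT (log2 fold change -0.33, SE 0.09, edgeR adjusted p 0.016), and did not pass without 3etv embryo 3 (adjusted p 0.067) or without WT embryo 3 (adjusted p 0.074). The gene ftr83 (ENSDARG00000025403), with the highest CPM of the family, did not pass. It had 48.5, 44.8 and 43.4 CPM in 3etv and 44.6, 43.0 and 45.6 CPM in WT (log2 fold change 0.04, SE 0.07, edgeR adjusted p 0.73). The gene ftr24 (ENSDARG00000008396) was called lower (log2 fold change -0.38, edgeR adjusted p 0.038), but its nearest embryos almost touched, at 11.1 CPM in both genotypes. It did not pass with DESeq2 (adjusted p 0.050), in thinned libraries (adjusted p 0.058) or without 3etv embryo 2 or 3 or WT embryo 2 or 3 (adjusted p from 0.097 to 0.15). The other 13 tested ftr genes did not pass, with log2 fold changes between -0.71 and 0.88.

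Of the class I genes, 6 of 8 were tested and, against 31.3% of all tested genes, 1 passed. That gene was mhc1zca (ENSDARG00000069471), of the Z lineage of class I genes, with 3, 3 and 5 counts in 3etv and 15, 46 and 38 counts in WT. Each mutant embryo lay below each wild type, and WT embryo 1 lay well below the other 2 (log2 fold change -2.71, SE 0.49, edgeR adjusted p 0.0010). The other 5 had log2 fold changes between -0.17 and 0.26. The class I gene with the highest CPM, mhc1zea (ENSDARG00000001470), had 9.79, 10.8 and 11.2 CPM in 3etv and 9.62, 12.8 and 11.4 CPM in WT (log2 fold change -0.09, edgeR adjusted p 0.62). No class I gene of the U lineage was tested, since mhc1uma, the only one among the members, had 6 counts or fewer in each embryo.

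The 1 tested class II gene was mhc2b (ENSDARG00000104635), listed as mhc2dgb in the current gene name table. It had 403, 141 and 949 counts in the 3etv embryos and 37, 26 and 31 counts in the WT embryos. The lowest mutant embryo lay above the highest wild type, but the SD of log2 CPM among the mutants was the largest of the 83 tested members, with levels of 21.6, 6.48 and 52.4 CPM against 1.65, 0.889 and 1.24 CPM in WT. The log2 fold change was 4.43 (SE 1.07, edgeR adjusted p 0.041). This call was lost without 3etv embryo 1 (adjusted p 0.090), without WT embryo 1, 2 or 3 (adjusted p 0.12, 0.15 and 0.14), in thinned libraries (adjusted p 0.0504) and without a low-count filter (adjusted p 0.053). Without 3etv embryo 3 the log2 fold change was 3.49. The class II companion chains cd74a and cd74b had 10 counts or fewer in each embryo. Of the 9 macrophage and myeloid markers, lcp1 was called higher in 3etv (log2 fold change 1.31, edgeR adjusted p 2.35e-07), and the untested coro1a had 11, 13 and 8 counts in 3etv and 5, 4 and 6 counts in WT. The markers spi1b and irf8 were not called, mpeg1.1 had no counts, and the part of these cells in the mhc2b values was not tested.

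The numbered copies of trim35 were tested in 10 of 21 cases, and 2 passed, against 31.3% of all tested genes. The entry trim35-7 (ENSDARG00000104825) had 11.6, 16.8 and 10.8 CPM in 3etv and 22.1, 23.7 and 29.3 CPM in WT, with each mutant below each wild type (log2 fold change -0.93, SE 0.16, edgeR adjusted p 0.0018). The entry trim35-30 (ENSDARG00000042396) had 15, 27 and 19 counts in 3etv and 1, 7 and 6 counts in WT (log2 fold change 2.48, SE 0.48, edgeR adjusted p 0.0016). The current gene name table lists this entry as cimap1b, so that its place in the trim35 family is uncertain. The copy with the highest CPM, trim35-28 (ENSDARG00000021021), did not pass. It had 37.1, 35.4 and 38.6 CPM in 3etv and 37.8, 35.2 and 37.9 CPM in WT (log2 fold change 0.0021, SE 0.08, edgeR adjusted p 0.99).

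Of the fish trim genes numbered from 101 to 110, 3 of 5 were tested. Against 31.3% of all tested genes, 1 of the 3 passed, trim109. It had 11.3, 9.28 and 8.72 CPM in 3etv and 13.1, 12.1 and 13.5 CPM in WT (log2 fold change -0.39, SE 0.12, edgeR adjusted p 0.025). It did not pass without 3etv embryo 2 (adjusted p 0.089), without 3etv embryo 3 (adjusted p 0.089) or without WT embryo 3 (adjusted p 0.080). The other 2, trim105 and trim107, had log2 fold changes of 0.19 and 0.37.

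Among the conserved trim genes, 20 of 29 tested did not pass, with log2 fold changes between -0.58 and 0.37. The member with the highest CPM was trim71 (ENSDARG00000075593), the counterpart of nematode lin-41 and a regulator of early embryonic cells. It had 379.6, 390.9 and 430.3 CPM in 3etv and 454.6, 417.1 and 423.4 CPM in WT (log2 fold change -0.11, SE 0.06, edgeR adjusted p 0.21). The chromatin-associated genes trim33 and trim24, of which trim33 is needed for zebrafish blood formation, had log2 fold changes of -0.09 and -0.03 (edgeR adjusted p 0.32 and 0.86). All 7 conserved trim genes in the highest tercile of mean CPM were without a call, with the largest absolute change, 0.16, in trim33l.

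Of the 4 tested trim genes of muscle, 3 passed as lower in 3etv, where 15.4% of all tested genes did. The muscle ubiquitin ligases trim63a and trim63b are the fish counterparts of MuRF1, and trim55a and trim55b those of MuRF2. The gene trim55a (ENSDARG00000029596) had 3.05, 2.11 and 3.81 CPM in 3etv and 5.03, 6.49 and 6.46 CPM in WT, with each mutant below each wild type (log2 fold change -1.02, SE 0.21, edgeR adjusted p 0.0026). The gene trim63b (ENSDARG00000086685) had 9, 6 and 16 counts in 3etv and 28, 53 and 53 counts in WT (log2 fold change -1.69, SE 0.39, edgeR adjusted p 0.0052). For trim63a (ENSDARG00000028027) the groups overlapped, with 1.39, 0.551 and 0.718 CPM in 3etv and 1.11, 2.63 and 1.99 CPM in WT (log2 fold change -1.14, SE 0.39, edgeR adjusted p 0.042). The call was lost under limma voom (adjusted p 0.053) and without 3etv embryo 2 or 3 or WT embryo 2 or 3 (adjusted p from 0.089 to 0.18).

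The gene trim55b (ENSDARG00000058158) did not pass (log2 fold change -0.58, edgeR adjusted p 0.26), and trim54, the MuRF3 counterpart, was below the filter with 11 counts or fewer in each embryo. Of the 8 listed markers of muscle and somite, 7 were tested and 7 passed as lower in 3etv, with a median log2 fold change of -0.77. Over all tested genes, 15.4% passed as lower. Their summed level lay between 613.6 and 688.0 CPM in 3etv and between 926.9 and 1150.2 CPM in WT, and 1 marker, myhz2, was at 0 in each embryo. Fewer muscle cells and less RNA per muscle cell cannot be told apart in whole embryos, and the part of this difference in the trim genes was not tested.

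**Figure D4:**
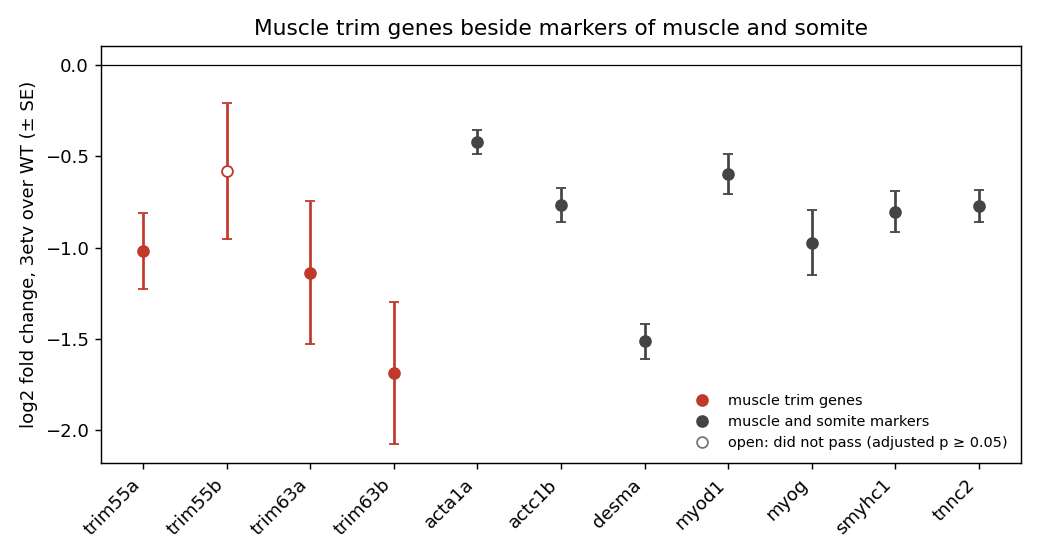
Log2 fold change with SE (vertical axis, 3etv over WT) of the 4 tested muscle trim genes in red beside the 7 tested markers of muscle and somite in grey. Filled points passed the test. Points lie below 0 throughout, from -1.69 for trim63b to -0.42 for acta1a, and trim55b, the open point, did not pass.

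The other conserved trim genes that were lower were trim59, trim9 and trim36. The gene trim59 (ENSDARG00000079238) had 8.5, 8.45 and 9.82 CPM in 3etv and 14.0, 11.2 and 11.9 CPM in WT (log2 fold change -0.47, SE 0.12, edgeR adjusted p 0.011). The gene trim9 (ENSDARG00000039123), a ubiquitin ligase known from neurons, had 11, 8 and 9 counts in 3etv and 33, 22 and 47 counts in WT (log2 fold change -1.48, SE 0.41, edgeR adjusted p 0.015). It did not pass without 3etv embryo 2 (adjusted p 0.065) or without WT embryo 3 (adjusted p 0.073). The gene trim36 (ENSDARG00000062794), which in the frog Xenopus is needed for the body axis and somites, was the least certain (log2 fold change -0.38, edgeR adjusted p 0.040). It did not pass with DESeq2 (adjusted p 0.051), in thinned libraries (adjusted p 0.051) or without 3etv embryo 2 or 3 or WT embryo 2 or 3 (adjusted p from 0.082 to 0.17).

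Conserved trim genes higher in 3etv were trim62.2, trim2a and trim25. The gene trim62.2 (ENSDARG00000095536) had 20, 28 and 19 counts in 3etv and 4, 3 and 3 counts in WT (log2 fold change 3.07, SE 0.43, edgeR adjusted p 1.48e-04). Its partner trim62.1 (ENSDARG00000060901) had 43, 68 and 40 counts in 3etv and 69, 84 and 75 counts in WT (log2 fold change -0.22, edgeR adjusted p 0.45). The gene trim2a (ENSDARG00000031817), a relative of a neuronal ubiquitin ligase in the mouse, had 20, 19 and 11 counts in 3etv and 2, 5 and 5 counts in WT (log2 fold change 2.41, SE 0.46, edgeR adjusted p 0.0017). Its duplicate trim2b (ENSDARG00000076174) had 4.20 CPM on average in 3etv and 5.81 CPM in WT (log2 fold change -0.47, edgeR adjusted p 0.055). The embryos of trim2b did not overlap between genotypes, and it reached an edgeR adjusted p of 0.042 when no low-count filter was used and of 0.022 when WT embryo 1 was left out. The duplicates trim3a and trim3b and the duplicates trim8a and trim8b had log2 fold changes between -0.22 and 0.08, with none called.

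The gene trim25 (ENSDARG00000104396), which in mammals activates the RNA sensor RIG-I, had 5.19, 5.97 and 5.13 CPM in 3etv and 2.85, 3.42 and 2.87 CPM in WT (log2 fold change 0.83, SE 0.17, edgeR adjusted p 0.0023). Each mutant lay above each wild type. Its relative trim25l did not pass (log2 fold change 0.37, edgeR adjusted p 0.078).

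Genes of the pathways in which these families act were described from lists of antigen presentation and interferon genes. Of 16 tested genes of antigen presentation, 7 passed, 5 higher and 2 lower in 3etv, with a median log2 fold change of 0.16. Higher were b2ml, a class I light chain gene (log2 fold change 0.69, edgeR adjusted p 0.0015), pdia3, canx, psmb10 and psme1. The light chain gene b2m (0.37, edgeR adjusted p 0.49) and psme2 (-0.17, adjusted p 0.19) were among the 9 not called. Lower were the peptide transporter gene tap1 (log2 fold change -1.29, edgeR adjusted p 0.032) and the peptidase gene erap1a (-0.88, adjusted p 0.0028). Of 18 tested interferon genes, 13 passed, 8 higher and 5 lower, with a median log2 fold change of 0.59.

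The interferon genes also went in both directions. The ubiquitin-like modifier gene isg15 had 26, 58 and 37 counts in 3etv and 3, 3 and 10 counts in WT (log2 fold change 3.25, SE 0.46, edgeR adjusted p 1.62e-04). The kinase gene eif2ak2 (log2 fold change 1.83) and stat1b (1.84) were also higher. In contrast, the RNA sensor gene ifih1 had 9, 5 and 8 counts in 3etv and 49, 64 and 53 counts in WT (log2 fold change -2.50, SE 0.33, edgeR adjusted p 9.23e-05), and the factors irf7 (-1.26) and irf1a (-0.98) were lower. The lists stand beside a share of 31.3% for all tested genes, and lists of this size were not tested as sets.

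Neighbouring members were looked up in the RefSeq gene order of the zebrafish assembly GRCz12tu, which is not the build of the counts and was used for neighbours alone. Of the 128 members, 91 had a single place there under an unchanged symbol. With at most 5 genes between them, 17 pairs of members were neighbours, 5 of them with both genes tested. In 4 of these 5 pairs 1 gene was called and the other was not, and mhc1zca belongs to more than 1 of them. Among all tested genes 31.3% were called, and the share of such pairs among all neighbouring genes was not computed. The fifth pair was ftr23, higher in 3etv, and ftr24, lower in 3etv, with 1 gene between them. The ftr24 call was lost in several other fits, as given above. The called class I gene mhc1zca stands between mhc1zba and mhc1zea, whose log2 fold changes were 0.17 and -0.09. Likewise ftr38 is next to ftr39p (log2 fold change 0.55, edgeR adjusted p 0.29), and ftr82 and ftr83 have 1 gene between them.

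Members with the same symbol or near-identical copies can exchange reads, and their values are less certain than those of single genes. Counts were kept for reads placed at a single site, while reads placed at more than 1 site made up 5.12% to 5.75% of the tabulated total in 3etv and 5.32% to 6.38% in WT. Of the 175 entries, 25 shared 11 symbols. Summed over its 2 entries, trim35-7 was lower in 3etv, at 14.0 ± 2.81 CPM against 26.1 ± 3.91 CPM in WT (SD, n = 3 each). The 2 ftr97 entries summed to 5.53 ± 1.09 CPM in 3etv and 4.88 ± 0.49 CPM in WT. In the current gene name table, the trim35-7 entry ENSDARG00000058958 is si:ch73-106l15.3 and the ftr97 entry ENSDARG00000055436 is ftr78. These sums may therefore join different genes. Sequences of the members were not compared.

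Spread among embryos of the same genotype was compared by expression level, as the pooled SD of log2 CPM within groups. In the lowest tercile of mean CPM, its median was 0.42 for 33 multi-copy members, 0.37 for 7 conserved trim genes and 0.34 for all tested genes, with median levels of 0.994, 0.925 and 1.34 CPM. In the middle tercile the medians were 0.19, 0.13 and 0.15, and in the highest tercile 0.10, 0.08 and 0.09. No member went from 3 counts or fewer in 1 embryo to at least 30 in another of the same genotype, which happened in 0.0486% of tested genes. The quartiles of the multi-copy and conserved groups overlapped in the lowest tercile and in the highest tercile. In the middle tercile the lower quartile of multi-copy members, 0.164, was just above the upper quartile of conserved trim genes, 0.163.

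**Figure D5:**
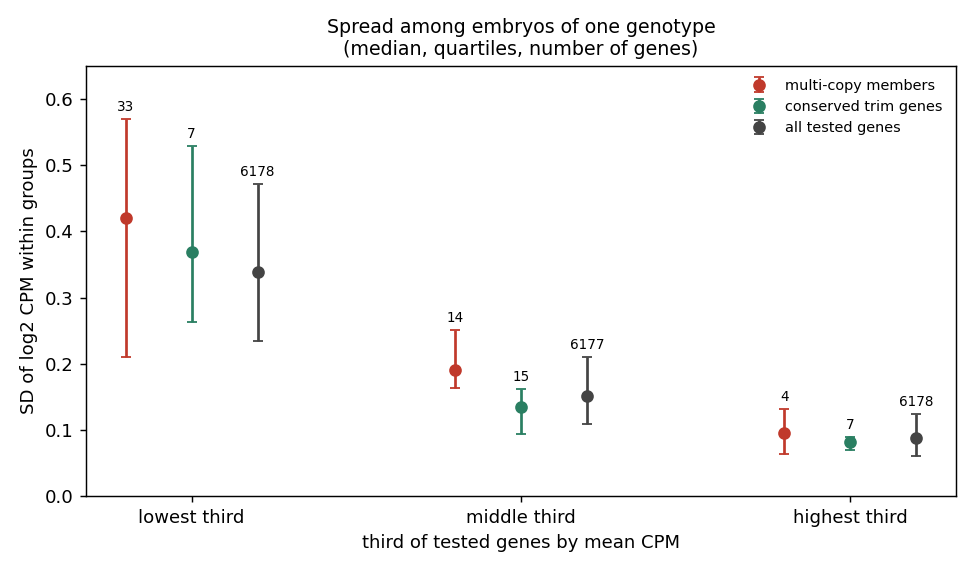
Pooled SD of log2 CPM among embryos of the same genotype (vertical axis) in terciles of all tested genes by mean CPM (horizontal axis). Points are medians, bars quartiles and numbers the genes in each set, for multi-copy members in red, conserved trim genes in green and all tested genes in grey. Medians fall from 0.42 to 0.10 in multi-copy members and from 0.34 to 0.09 in all tested genes with rising level.

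The 45 members that were not tested were 39 multi-copy genes, 4 conserved trim genes and 2 numbered from 101 up, with at most 34 counts in any embryo. The groups did not overlap in 15 of them, 11 higher and 4 lower in 3etv. Among all untested genes with at least 10 counts, the groups did not overlap in 27.5%, with 14.1% higher and 13.4% lower. Among the untested members, ftr53 had 0 counts in each 3etv embryo and 14, 10 and 9 counts in WT, and ftr43 had 0 counts in each 3etv embryo and 2, 11 and 15 in WT, at least 2.86-fold and 2.29-fold lower in 3etv. The gene ftr04 had 6, 13 and 2 counts in 3etv and 1, 0 and 0 in WT. At the count minimum, 5 entries had 10 counts in all (ftr10, ftr22, ftr98, mhc2dbb and trim35-13) and 4 had 9 and were left out (ftr07, ftr30, trim108 and trim69). The entry TRIM67, in capitals in the table, did not match the rule, and had 14, 19 and 7 counts in 3etv and 3, 9 and 9 in WT.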

How the data were processed

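The authors deposited 1 table of raw counts per Ensembl gene, poly-A RNA of single embryos in strand-specific libraries per the labels' protocols. STAR, HTSeq and the build GRCz11 are named in the submitters' processing notes, while versions, annotation release and counting settings are not given in the sources used here. Columns were matched to samples by the titles in the header. Reads counted to genes made up 39.7% to 41.7% of the tabulated total and reads assigned to no feature 52.8% to 53.6%, and the summary entries were left out.

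The test was that of edgeR 4.0.16 under R 4.3.3 (filterByExpr, TMM, robust quasi-likelihood, genotype as the only term), on all 18533 genes past the filter, with Benjamini-Hochberg adjustment at 0.05. CPM were computed with TMM scaling and are not corrected for gene length. SEs were derived from the log2 fold change and the F statistic. Intervals and floors of 3 counts cover counting error only. The labels do not say whether embryos shared parents, so p-values measure the spread between these embryos. The fit was tested on simulated data.

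Named genes were, per family, the highest in CPM and up to 3 (conserved trim: 6) per direction with the lowest adjusted p, plus the muscle trim genes and trim71; other genes were chosen after their values were seen. Members and lists were chosen with earlier results of these data known. Alternatives used limma 3.58.1, DESeq2 1.42.0, other scaling and filters, each embryo left out, a replicate block and thinned libraries.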

Additional observations from a re-analysis of the deposited data

How the results depend on the processing

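Of the 33 members that differed between 3etv and WT, the sign held in each fit tried. The counts below are of members alone. In the fit described above, 31.3% of all tested genes passed. That share can change with the setting and is not given for the other settings, so the counts are not read against it. DESeq2 called 29 members and limma voom 33. Under edgeR the count was 33 after upper-quartile scaling, 32 after RLE scaling, 40 with no filter on low counts, 22 at an adjusted p under 0.01 and 27 in libraries thinned to equal depth, an alternative chosen after seeing the data. Leaving out each embryo gave from 26 to 35 members, from 20 to 24 multi-copy members and from 6 to 10 conserved trim genes. When the filter was a mean count of 50, fewer genes were tested, and 16 members passed, 11 multi-copy and 4 conserved trim. At an adjusted p under 0.01, 5 conserved trim genes passed. All-or-none members numbered 4 with at least 10 counts on the high side, and from 0 to 1 without 1 embryo. Same-numbered embryos deviated from their group means with correlations between -0.13 and -0.03. Embryos are single, and the labels state no pairing by number. Whether same-numbered embryos shared a batch cannot be told from these correlations. With the replicate number as a block, 29 members passed, 22 multi-copy and 7 conserved trim, and ftr24, trim36, trim63a and trim109 lost their calls. Of 32 named genes tested, 27 kept their side of the threshold under each alternative that tested them. The adjusted p cut-off of 0.01 was not among these alternatives. Most of the 32 were named for the lowest adjusted p in their family, so this count does not describe the other members. Outside the named genes, ftr05, ftr24, ftr67, ftr82 and the ftr90 entry ENSDARG00000097373 lost their calls under at least 1 alternative. The filter on a mean count of 50 left 18 of the 32 in the test. Depth limits genes with few counts, which make up most of the ftr family.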
